A study of Mus musculus with 50 samples.

Results

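The MHC class II and co-stimulation genes described here are 10 mouse genes, H2-Aa, H2-Ab1, H2-Eb1, H2-DMa, Cd74, Ciita, Cd40, Cd80, Cd86 and Cd83, chosen by name from the 48526 genes of a count table. Each of the 10 matched exactly 1 row of that table. RNA-seq counts of 50 libraries in 14 groups were analysed, each from microglia sorted by FACS from mouse brain and named here by the number in its label. The labels do not say that each library is 1 mouse, so p-values measure the spread between libraries, part of which may be technical. All mice, controls included, were loxP/loxP for Hdac1 and for Hdac2, the genes of a pair of histone deacetylases. Constitutive knockouts carried CX3CR1-Cre, received no treatment and were sampled at birth (P0, n = 3), at 2 weeks (14 days, n = 2) and at 6 weeks (45 days, n = 3), each with 4 controls without Cre. Inducible knockouts carried CX3CR1-CreERT2, a Cre that acts after tamoxifen, and the dams of knockouts and controls alike had received 3 mg tamoxifen, in a solution that also held progesterone, on embryonic day 13. They were sampled on embryonic day 16 (E16, 3 knockouts and 4 controls), at P0 (4 and 3), at 2 weeks (4 and 4) and at 6 weeks (4 and 4). E16 and P0 animals were decapitated and older ones perfused. In each knockout comparison the deletions cannot be told apart from the presence of Cre, and Cx3cr1 also marks other cells of the monocyte and macrophage lineage, so the deletion need not be limited to microglia. CPM is the count of a gene scaled to the total of its library, ± is the SD between libraries for a level and the standard error for a log2 change, and a gene rose or fell only where its adjusted p in edgeR's quasi-likelihood test was under 0.05.

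MHC class II molecules are pairs of an alpha and a beta chain that show peptides on the cell surface to CD4 T cells. H2-Aa and H2-Ab1 encode the alpha and beta chains of I-A, and H2-Eb1 the beta chain of I-E. Cd74 encodes the invariant chain, which occupies the groove until H2-DM, of which H2-DMa encodes the alpha chain, loads a peptide. Ciita encodes the transactivator that class II promoters depend on. Cd40 is the receptor for CD40 ligand of T cells, Cd80 and Cd86 encode the ligands of CD28 and CTLA4, and Cd83 encodes a membrane protein of activated antigen presenting cells. Resting microglia of healthy adult brain are known for low class II levels, while border macrophages, monocytes, dendritic cells and B cells can carry more, so cells of those types in a sort would add to these counts.

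RefSeq promoter windows (GRCm38.p6, 250 bases before to 50 after a start) were at hand for 4 of the 10 genes, H2-Aa, H2-Eb1, H2-DMa and Cd80. Class II promoters are known for an X box followed by a Y box, and 3 stretches of it were searched on both strands: GNAAC, then TGANG after 0 to 5 bases, then GATTGG after 5 to 25 bases, with no overlap between them. These letters were chosen after the windows had been read. The order of all 3 was found in 22 of 32851 windows of 300 bases (0.067%), and GATTGG alone, on either strand, in 16.1%. H2-Aa and H2-Eb1 held it, and H2-DMa and Cd80 did not. Among other class II pathway genes it was found in H2-DMb1, H2-Ob and H2-Eb2. Only gaps within these limits were searched, so any likeness of spacing follows in part from the search. H2-Eb2 had 0 counts in constitutive knockouts and in their controls alike at 2 and 6 weeks, and in both inducible-model groups at 2 weeks. The stretches below, 30 bases to either side of the match, are those of H2-Aa, H2-Eb1 and 2 neighbours. They have the 3 elements in capitals and every base before the annotated start.
H2-Aa (chr17:34287837-34287934, - strand): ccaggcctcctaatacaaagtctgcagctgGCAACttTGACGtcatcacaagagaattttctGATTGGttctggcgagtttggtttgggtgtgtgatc
H2-Eb1 (chr17:34305746-34305842, + strand): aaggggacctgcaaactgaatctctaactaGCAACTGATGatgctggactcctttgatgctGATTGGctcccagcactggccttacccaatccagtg
H2-Ob (chr17:34238788-34238882, + strand): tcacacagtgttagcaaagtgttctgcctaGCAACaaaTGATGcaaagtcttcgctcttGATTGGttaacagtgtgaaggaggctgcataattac
H2-Eb2 (chr17:34325513-34325609, + strand): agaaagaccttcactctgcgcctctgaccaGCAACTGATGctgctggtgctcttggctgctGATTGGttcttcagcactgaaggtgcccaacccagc
The first capital lies 81 bases before the start in H2-Aa, 91 in H2-Eb1, 87 in H2-Ob and 132 in H2-Eb2.

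In the GENCODE vM21 annotation of GRCm38 (positions counted from 1), the 4 H2 genes lie in the MHC region of chromosome 17: H2-DMa at 34119541-34139101 (+), H2-Ab1 at 34257689-34269419 (+), H2-Aa at 34282744-34287823 (-) and H2-Eb1 at 34305867-34316674 (+). Ciita (10480059-10528418, +), Cd80 (38455561-38496335, +) and Cd86 (36603869-36666081, -) are on chromosome 16. Cd40 is on chromosome 2 (165055627-165072948, +), Cd83 on chromosome 13 (43784775-43803132, +) and Cd74 on chromosome 18 (60803848-60812652, +). The libraries keep no strand, and H2-DMa shares 360 exon bases with Brd2, Ciita 329 with Dexi and Cd74 12 with Mir5107, so reads there can come from either gene.

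Library totals ran from 11050277 to 29651179 counts. Hdac2 was lower in all inducible knockout libraries at P0, 2 weeks and 6 weeks than in every control of that age, with 32.5, 28.1, 30.6 and 27.3 CPM in 6-week knockouts against 67.8, 77.1, 71.5 and 66.1 CPM in controls. In constitutive P0 knockouts Hdac2 was at 191, 124 and 137 CPM against 164, 129, 126 and 156 CPM in controls, which overlapped, and Hdac1 was called in none of the 7 knockout comparisons. All inducible knockouts had less Hdac1 than every control at E16 (9.67 to 13.8 against 16.2 to 18.2 CPM), P0 (7.31 to 9.45 against 12 to 14.9) and 2 weeks (11.99 to 14.8 against 16.2 to 18.4), as did both constitutive knockouts at 2 weeks (9.66 to 15.1 against 17.9 to 18.996). The count of a gene covers all of its exons, also any outside the loxP sites. Some libraries labelled knockout stood apart in these genes: constitutive P0 library 68 had 35.7 CPM of Hdac1 and 6-week library 380 had 92.2, both above every control. Hdac2 was at 70.1 CPM in 2-week library 89, within its controls, and at 316 CPM in E16 library 1, above its controls. Microglia marker genes such as Tmem119, P2ry12, Sall1, Cx3cr1, Fcrls, Gpr34, Olfml3, Csf1r and Siglech had counts in every group. In bulk libraries, fewer cells of a type and less RNA per cell cannot be told apart.

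**Figure D1:**
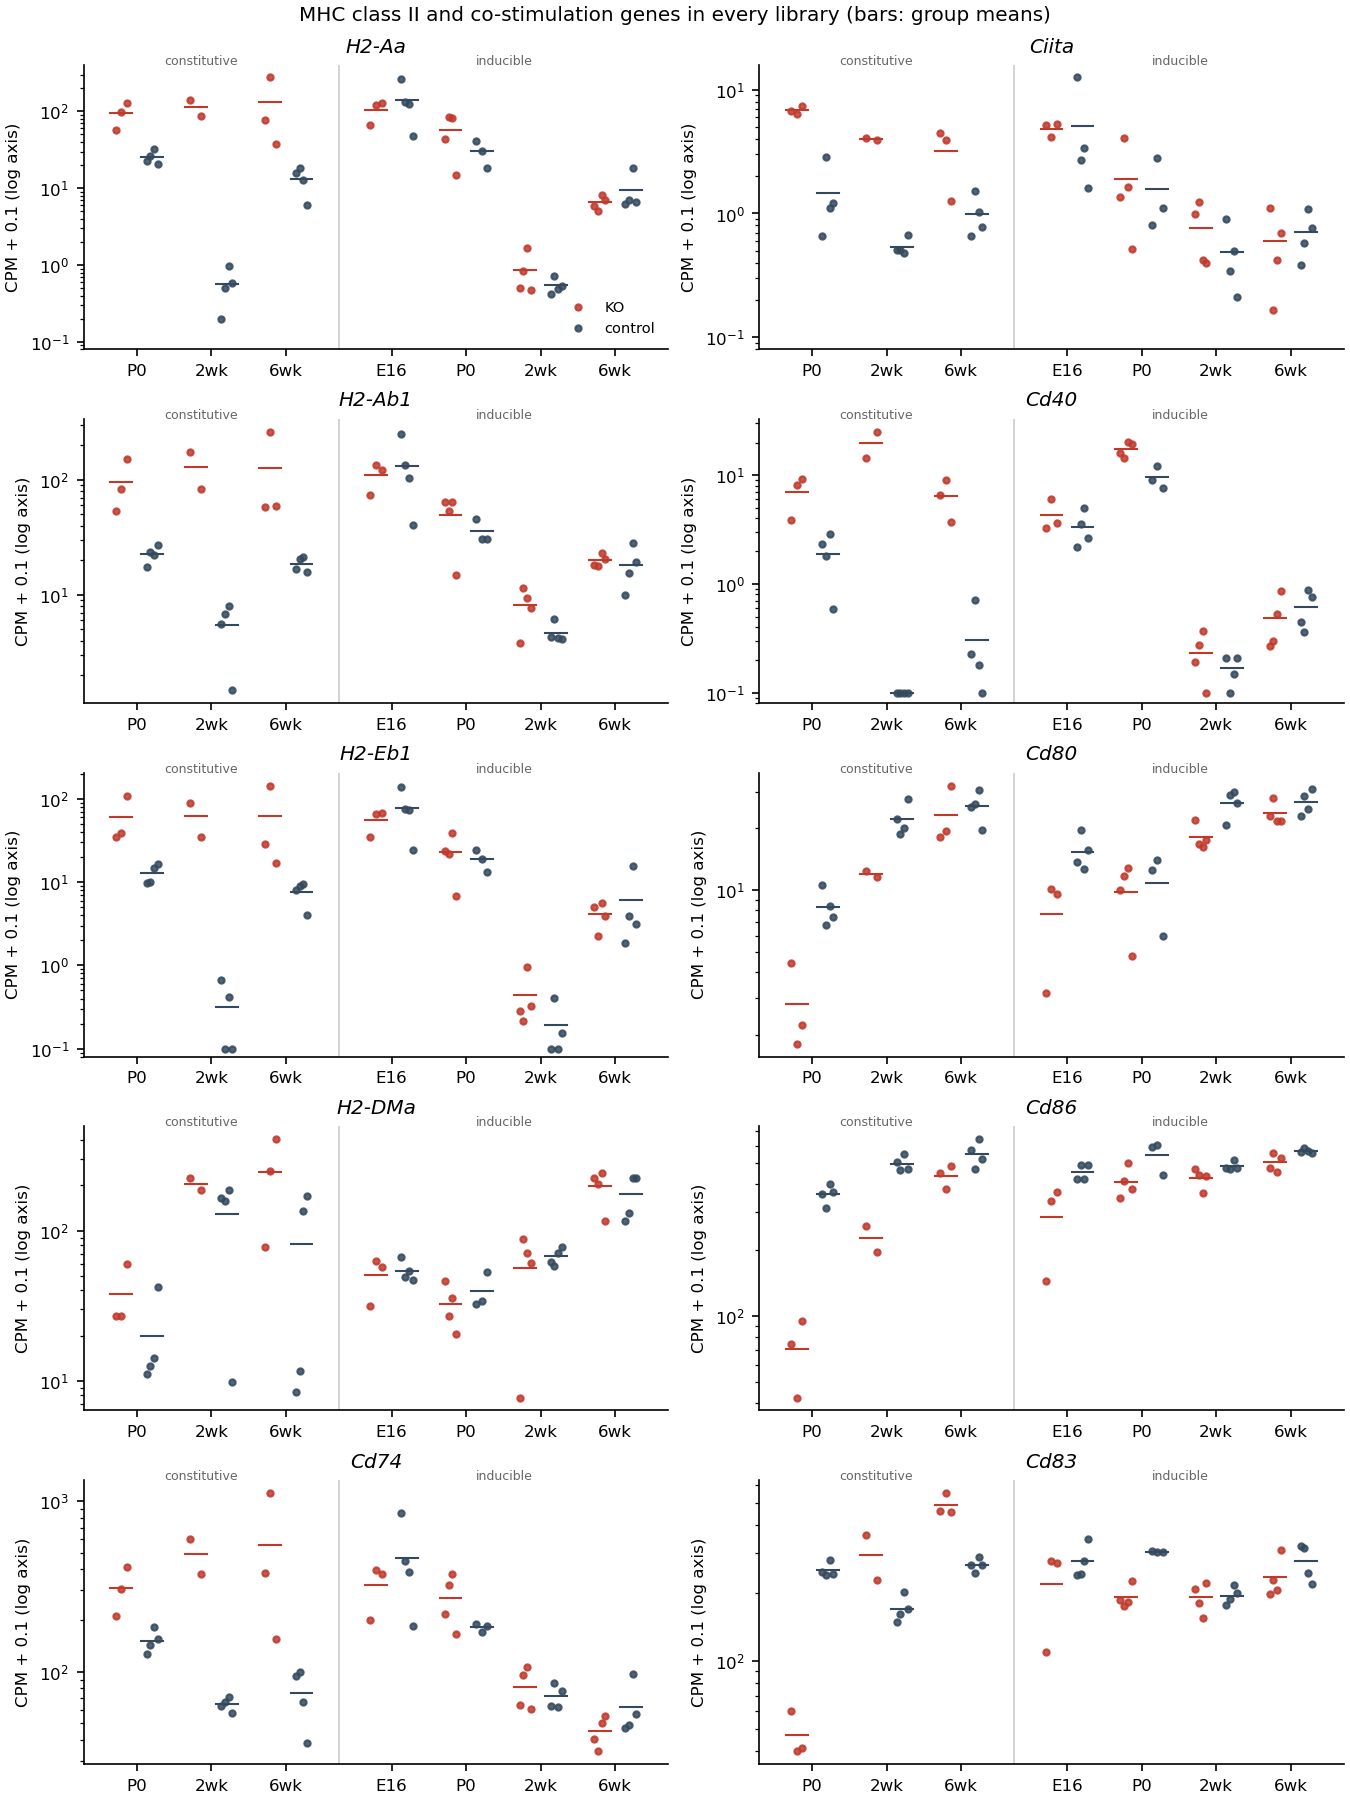
CPM + 0.1 on a log axis for each of the 10 genes (panels), with 1 point per library and bars at group means, knockout left of control at each age and the constitutive groups left of the grey line. H2-Aa, H2-Eb1 and Cd40 are below 1 CPM in 2-week controls of both models and not in constitutive 2-week knockouts, where Cd40 is 14.4 and 24.9 CPM.

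In control microglia H2-Aa, H2-Eb1 and Cd40 were below 1 CPM at 2 weeks, with higher levels of the class II chains at birth and at 6 weeks, while the steps of Cd86 and Cd83 were under 1 on the log2 scale. H2-Aa had 22.2, 26.3, 32.7 and 20.6 CPM in constitutive-model controls at P0, 0.102, 0.403, 0.879 and 0.488 CPM at 2 weeks and 15.7, 18.3, 12.8 and 6.03 CPM at 6 weeks. These 3 ages did not overlap. It fell between P0 and 2 weeks (log2 change -5.50 ± 0.39, adjusted p = 4.68e-08) and rose by 6 weeks (log2 change 4.81 ± 0.48, adjusted p = 2.18e-05). H2-Ab1 averaged 22.6 ± 4.06, 5.36 ± 2.82 and 18.4 ± 2.75 CPM at the same ages, a shallower dip, and H2-Eb1 12.7 ± 3.39, 0.218 ± 0.271 and 7.53 ± 2.48 CPM (n = 4 each). Inducible-model controls followed the same course: H2-Aa averaged 141 ± 88.6 CPM at E16 (n = 4), 30.1 ± 11.7 at P0 (n = 3), 0.442 ± 0.126 at 2 weeks and 9.46 ± 5.94 at 6 weeks (n = 4 each). The fall by 2 weeks passed the test for all 3 chains (-5.87 ± 0.35 for H2-Aa, -2.75 ± 0.22 for H2-Ab1 and -7.52 ± 0.63 for H2-Eb1 on the log2 scale), as did the rise by 6 weeks (4.34 ± 0.43, 1.91 ± 0.28 and 6.00 ± 1.06). The 2-week values of H2-Eb1 rest on 0 to 5 counts per inducible-model control, so the size of its fitted changes is uncertain.

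Cd74 fell between P0 and 2 weeks in both sets of controls (-0.94 ± 0.12 in the constitutive and -1.12 ± 0.13 in the inducible model, log2) and was not called between 2 and 6 weeks. At 2 weeks it still had 63.2, 66.1, 71.4 and 57.3 CPM in constitutive-model controls, where the chains were below 8 CPM. Cd40 averaged 9.57 ± 2.35 CPM in inducible-model controls at P0 and 0.0664 ± 0.0523 at 2 weeks (log2 change -6.80 ± 0.54, adjusted p = 1.01e-06). Cd80 moved the other way, with 8.20 ± 1.69 CPM at P0 and 22.0 ± 3.96 CPM at 2 weeks in the constitutive model (log2 change 1.71 ± 0.20, adjusted p = 5.6e-06), and rose in the inducible model too (log2 change 1.51 ± 0.27). Cd86 rose only in the constitutive-model step between P0 and 2 weeks (log2 change 0.75 ± 0.11), and the 2 models were not tested against each other for it. Cd83 fell between P0 and 2 weeks in the inducible model (log2 change -0.43 ± 0.10) and rose between 2 and 6 weeks in both (log2 changes 0.61 ± 0.11 and 0.43 ± 0.12). H2-DMa rose between P0 and 2 weeks in both models (log2 changes 3.02 ± 0.95 in the constitutive and 0.98 ± 0.18 in the inducible one) and between 2 and 6 weeks in the inducible one (log2 change 1.30 ± 0.23). The constitutive-model call of H2-DMa was lost without any 1 of the 2-week libraries 77, 78 and 81 or the P0 libraries 69, 70 and 71 (edgeR adjusted p between 0.0634 and 0.0793). The rise of Cd83 between 2 and 6 weeks in the inducible model was lost without the 2-week library 1 or 2 or the 6-week library 10 (edgeR adjusted p = 0.0739, 0.0582 and 0.0827).

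Among the 8 genes tested, 3 rose and 4 fell between P0 and 2 weeks in constitutive-model controls, where 26.7% of all genes tested rose and 36.6% fell. In inducible-model controls all 10 were tested, 2 rose and 6 fell, against 21.9% and 32.7% of all genes. Between 2 and 6 weeks 4 of 8 rose and none fell in the constitutive model, against 8.8% and 8.93%, and 5 of 8 rose and none fell in the inducible model, against 8.13% and 8.98%. In the steps to and from 2 weeks, H2-Aa and H2-Eb1 passed the filter on low counts only through the age at which they were higher. So did Cd40 and Ciita between P0 and 2 weeks in the inducible model, with at most 0.110 and 0.799 CPM in 2-week controls. Each of these genes could thus be called in 1 direction only in such a step. Part of the shares called follows from the filter. Between E16 and P0 none of the 10 was called in edgeR (0.0464% of all genes rose and 0.0116% fell, and 1875 of 17251 genes had an unadjusted p under 0.05), and DESeq2 called 3 of the 10. With no filter on low counts the call of H2-Ab1 between 2 and 6 weeks in the constitutive model was lost (edgeR adjusted p = 0.0591). Border macrophage markers moved with the step between P0 and 2 weeks: their summed level was 595 to 820.4 CPM in constitutive-model controls at 2 weeks against 2862 to 4147 CPM at P0, and 617 to 769.7 against 4048 to 14944 CPM in the inducible model. In that step 11 of 12 border macrophage, 8 of 11 monocyte and 4 of 11 neutrophil markers tested fell in the constitutive model, and 12 of 12, 11 of 11 and 11 of 11 in the inducible one. At 6 weeks the border macrophage sum was 534 to 933 CPM in constitutive-model and 473 to 628 CPM in inducible-model controls, which overlapped the 2-week values. Monocyte marker sums were 55.5 to 162 CPM at 6 weeks against 20.5 to 90.6 CPM at 2 weeks in constitutive-model controls, and 99.96 to 121 against 34.3 to 36.5 CPM in inducible-model controls. Neutrophil marker sums were 395.9 to 677 CPM at 6 weeks against 114 to 824 CPM at 2 weeks in the constitutive and 794 to 1155 against 136 to 222 CPM in the inducible model. In the inducible model both sums were higher in every 6-week control, and 5 of 8 monocyte and 8 of 9 neutrophil markers tested rose, with 1 of each that fell. In the constitutive model 1 of 9 and 0 of 9 rose and none fell. The part of these markers in the class II steps was not tested.

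Per length of transcript (TPM, from the deposited gene lengths), Cd86 was the most abundant of the 10 in 6-week constitutive-model controls at 477 ± 59.4, above Cd83 at 393 ± 23.1. Cd74 (167 ± 63.1 TPM) and H2-DMa (157 ± 163 TPM) followed and did not differ beyond their spread. Cd80 had 47.2 ± 7.86, H2-Ab1 35.5 ± 4.97, and H2-Aa (22.3 ± 8.86) and H2-Eb1 (20.1 ± 6.45) were again within their spread of each other. Ciita and Cd40 came last at 0.540 ± 0.225 and 0.189 ± 0.258 TPM. In 6-week constitutive knockouts the order began with Cd74 at 1177 ± 1043 TPM, a mean that 1 of the 3 libraries carries.

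In constitutive knockouts the class II chains, Ciita and Cd40 were higher than in controls at all 3 ages, with H2-Aa and H2-Eb1 missing the test at 6 weeks, and the changes were largest at 2 weeks. Cd80, Cd86 and Cd83 fell at P0, and by 2 and 6 weeks Cd83 had turned to a rise. At P0 6 of the 10 genes rose and 3 fell, where 21.4% of all 18411 genes tested rose and 20.2% fell. At 2 weeks 7 rose and 2 fell, against 24.4% and 17.8% of 15017 genes, and at 6 weeks 4 rose and none fell, against 6.76% and 5.24% of 14428 genes. The shares of the 10 that fell were near those of all genes at each age, and the shares that rose were above them. All 10 passed the filter on low counts in each, but some passed it only through the knockouts. These were H2-Aa, H2-Eb1, Ciita and Cd40 at 2 weeks, with at most 0.879, 0.559, 0.569 and 0 CPM in controls, and Cd40 at 6 weeks. Such genes could be called only as rises, so part of the shares that rose at these ages follows from the filter. The median log2 change over the 10 was 1.10 at P0, 3.02 at 2 weeks and 2.24 at 6 weeks, beside 0.04, 0.00 and -0.01 over all genes tested. Without the P0 library 68, 6 rose and 3 fell, without the 2-week library 89, 7 rose and 2 fell, and without the 6-week library 380, 5 rose and none fell.

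Markers of other cells moved in the same comparisons. Summed neutrophil markers (12 genes) were 7373 to 11246 CPM in P0 knockouts against 661 to 1582 in controls, 17779 to 50511 against 114 to 824 at 2 weeks and 2167 to 4839 against 395.9 to 677 at 6 weeks. Monocyte markers (11 genes) were 1432 to 1988 CPM in P0 knockouts against 220.3 to 368 in controls, 2278 to 5786 against 20.5 to 90.6 at 2 weeks and 204 to 967 against 55.5 to 162 at 6 weeks. Of the monocyte markers 10 rose at P0, 11 at 2 weeks and 4 at 6 weeks, and of the neutrophil markers 12 of 12, 12 of 12 and 8 of 9 tested. Border macrophage markers (12 genes) were within the control range or below it at P0, where 1 rose and 8 fell. They were 3648 to 3782 CPM in 2-week knockouts against 595 to 820.4 in controls and 1986 to 2819 against 534 to 933 at 6 weeks, with 10 and 7 of 12 that rose. The 10 microglia markers summed to 1018 to 3902 CPM in P0 knockouts against 21303 to 24657 in controls, 15678 to 23909 against 56538 to 62919 at 2 weeks and 33762 to 47394 against 57670.2 to 60141 at 6 weeks. This sum includes Cx3cr1, the gene that both Cre lines are named for. Cx3cr1 averaged 1997 CPM in 2-week knockouts against 6856 CPM in controls. Dendritic cell marker sums were higher in knockouts at P0 (226 to 267 against 118 to 188 CPM) and lower at 2 weeks (79.0 to 126 against 246 to 374) and 6 weeks (138 to 219 against 293 to 588). Most of that sum in controls at 2 and 6 weeks was Fscn1, at 20.0 CPM on average in 2-week knockouts against 256 CPM in controls and 127 against 377.2 CPM at 6 weeks. Single markers of that list went both ways, with 4 of 9 tested that rose and 3 that fell at 2 weeks, and 1 of 8 and 2 at 6 weeks. Clec10a rose at both ages, averaging 16.7 CPM in 2-week knockouts against 0.350 CPM in controls and 3.14 against 0.366 CPM at 6 weeks, and Cd209a, at 0 counts in all 2-week controls, rose at 2 weeks. B cell marker sums were lower in knockouts at each age, at 224 to 381 against 478 to 586 CPM at P0, 141 to 374 against 495 to 552 at 2 weeks and 364 to 503 against 514 to 661 at 6 weeks. Ighm made up most of that sum, at 181 CPM on average in P0 knockouts against 446 CPM in controls. Of the B cell markers tested, 6 of 9 rose and 2 fell at P0, 2 of 4 rose and 2 fell at 2 weeks, and 1 of 4 rose and 1 fell at 6 weeks. Ms4a1 rose, averaging 7.61 CPM in 2-week knockouts against 0.0203 CPM in controls and 1.54 against 0.0711 CPM at 6 weeks, and Cd79a rose at 2 weeks (1.74 against 0.207 CPM). T and NK cell marker sums were 30.5 to 38.2 CPM in P0 knockouts against 12.04 to 20.2 CPM in controls. They were 14.1 to 16.5 against 1.15 to 2.03 CPM at 2 weeks, with Cd3g, Cd2 and Gzma at 0 in all 2-week controls, and 3.12 to 8.09 against 2.06 to 4.04 CPM at 6 weeks. The part of these cells in the levels of the 10 genes was not tested.

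**Figure D2:**
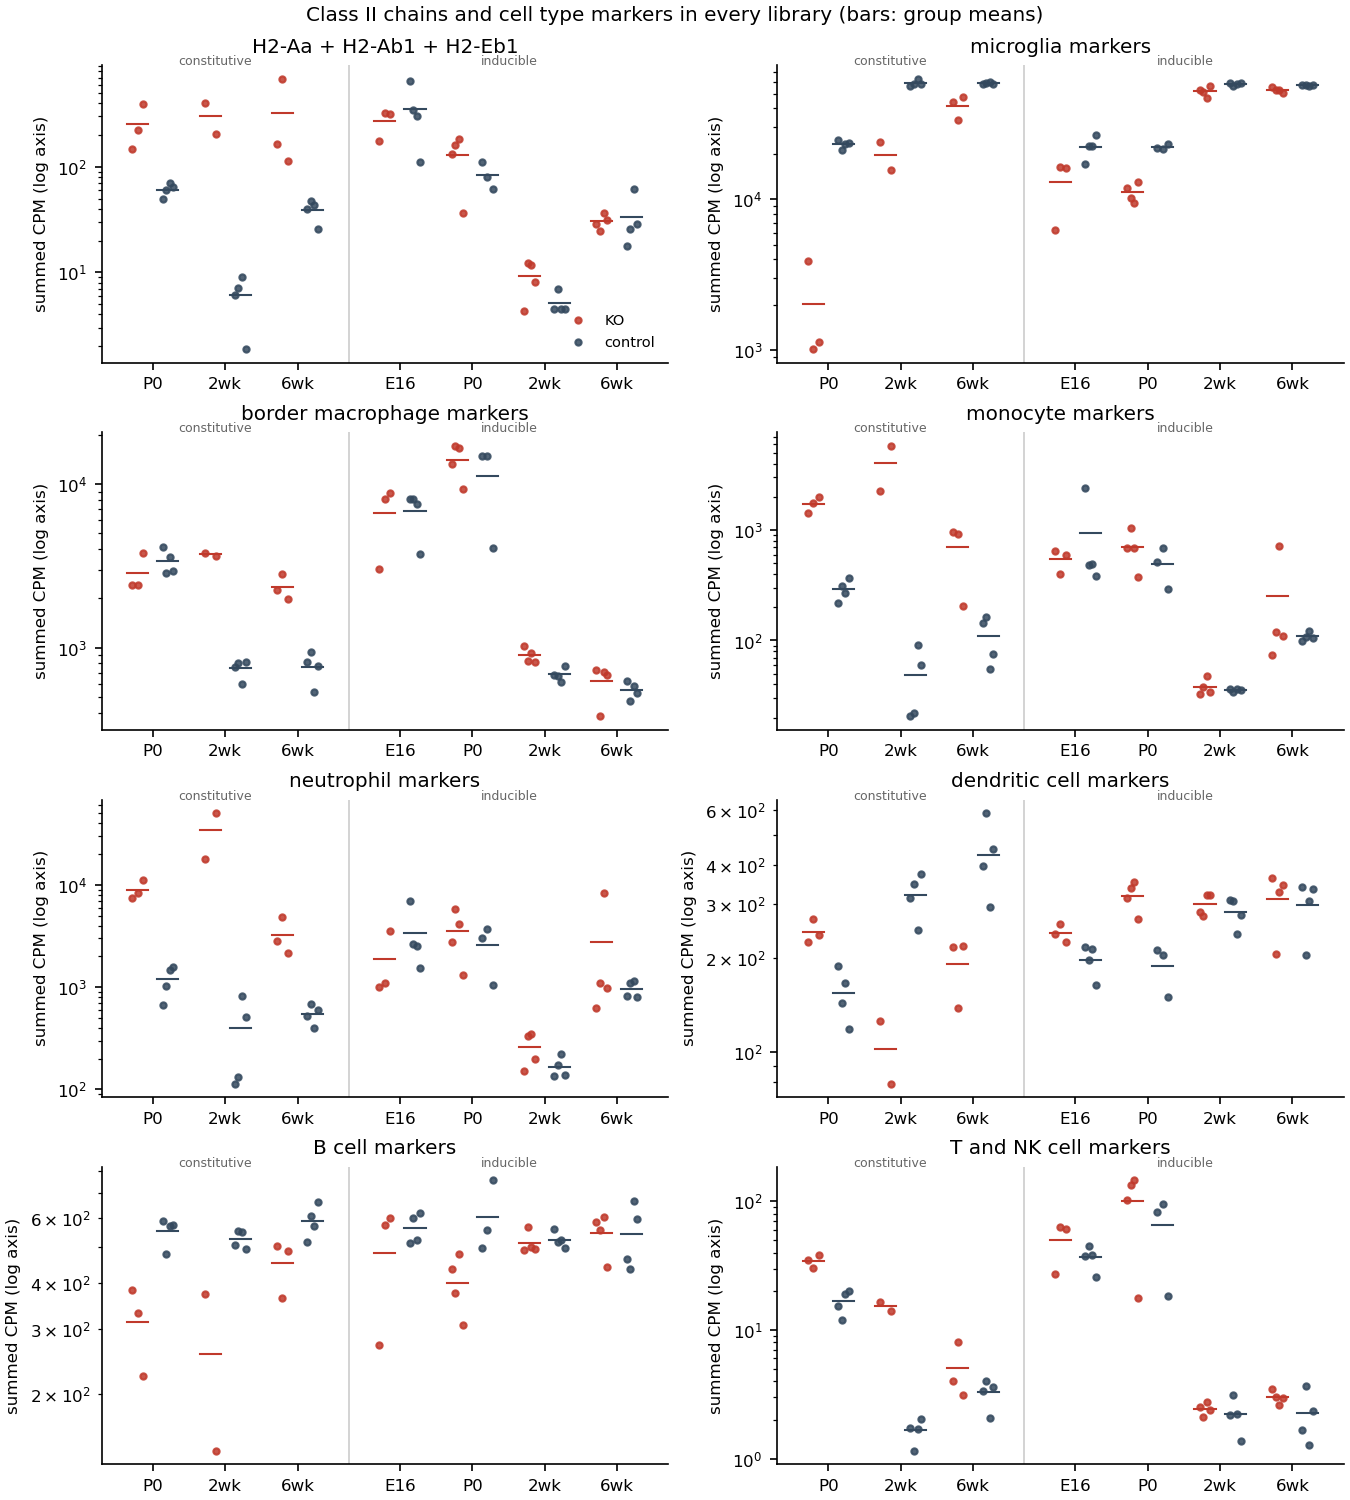
Summed CPM per library on a log axis for the 3 class II chains and for 7 cell type marker lists (panels), with bars at group means, knockout left of control and the constitutive groups left of the grey line. In constitutive 2-week knockouts the chains, border macrophage, monocyte and neutrophil markers are all above every control, and the microglia markers are below.

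The 3 class II chains rose together in constitutive knockouts at P0 and at 2 weeks. At P0 H2-Aa had 57.5, 99.3 and 128 CPM in knockouts (libraries 68, 73 and 76) against 22.2, 26.3, 32.7 and 20.6 CPM in controls (log2 change 1.54 ± 0.25, adjusted p = 0.00075). H2-Ab1 had 53.8, 83.2 and 152 CPM in these knockouts against 17.4, 23.4, 22.2 and 27.3 CPM (log2 change 1.75 ± 0.29, adjusted p = 0.000885). H2-Eb1 had 35.1, 38.8 and 109 against 9.71, 9.89, 14.8 and 16.3 CPM (log2 change 1.92 ± 0.38, adjusted p = 0.00235). Knockouts and controls did not overlap for any chain, and library 76 was the highest for all 3. Msh5, another chromosome 17 gene described below, did not overlap either, at 5.02 to 13.2 CPM in knockouts against 35.9 to 75.6 CPM in controls. Whether the chains and that gene are linked was not tested. That library also had the highest monocyte, neutrophil and border macrophage marker sums of the 3 knockouts.

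At 2 weeks the same chains were again high in knockouts, and H2-Aa and H2-Eb1 were below 1 CPM in every control. H2-Aa had 142 and 87.9 CPM in knockout libraries 80 and 89 against 0.102, 0.403, 0.879 and 0.488 CPM in the 4 controls, a 247-fold difference in the fit (log2 change 7.95 ± 0.40, adjusted p = 4.84e-06). H2-Eb1 had 89.8 and 34.99 against 0.559, 0, 0.314 and 0 CPM (log2 change 7.93 ± 0.71, adjusted p = 0.000201), where the 4 controls together held 16 counts. H2-Ab1 had 175 and 82.9 against 5.49, 6.73, 7.85 and 1.38 CPM (log2 change 4.52 ± 0.56, adjusted p = 0.00152). Library 80 was higher than library 89 for each chain. Monocyte marker sums were 2278 CPM in library 80 and 5786 CPM in library 89, and neutrophil marker sums 17779 and 50511 CPM. Border macrophage marker sums ran from 3648 to 3782 CPM in the pair. The part of these cells in the chain values was not tested.

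At 6 weeks the chains were again higher in knockouts, and the knockout libraries were far apart. H2-Aa had 78.1, 277 and 37.5 CPM in knockouts (library 380 is the second given) against 15.7, 18.3, 12.8 and 6.03 CPM in controls, which just missed the threshold (log2 change 3.27 ± 0.79, adjusted p = 0.0541). H2-Eb1 had 28.3, 143 and 16.8 against 7.88, 8.80, 9.496 and 3.95 CPM (log2 change 3.01 ± 0.83, adjusted p = 0.0814). H2-Ab1 had 58.3, 261 and 58.5 against 16.5, 20.3, 21.1 and 15.5 CPM and rose (log2 change 2.73 ± 0.61, adjusted p = 0.0398). Every knockout library was above every control for each chain, and library 380 was 3 or more times as high as the other two. Without it the log2 change was 2.09 for H2-Aa (adjusted p = 0.029), 1.53 for H2-Eb1 (adjusted p = 0.0186) and 1.62 for H2-Ab1, and all 3 rose. DESeq2 called all 3 chains and Cd74, as did edgeR without the last knockout given and with all 50 libraries in 1 fit, while H2-Ab1 was no longer called on leaving out any 1 of the 4 controls and with no filter on low counts (adjusted p = 0.0847).

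**Figure D3:**
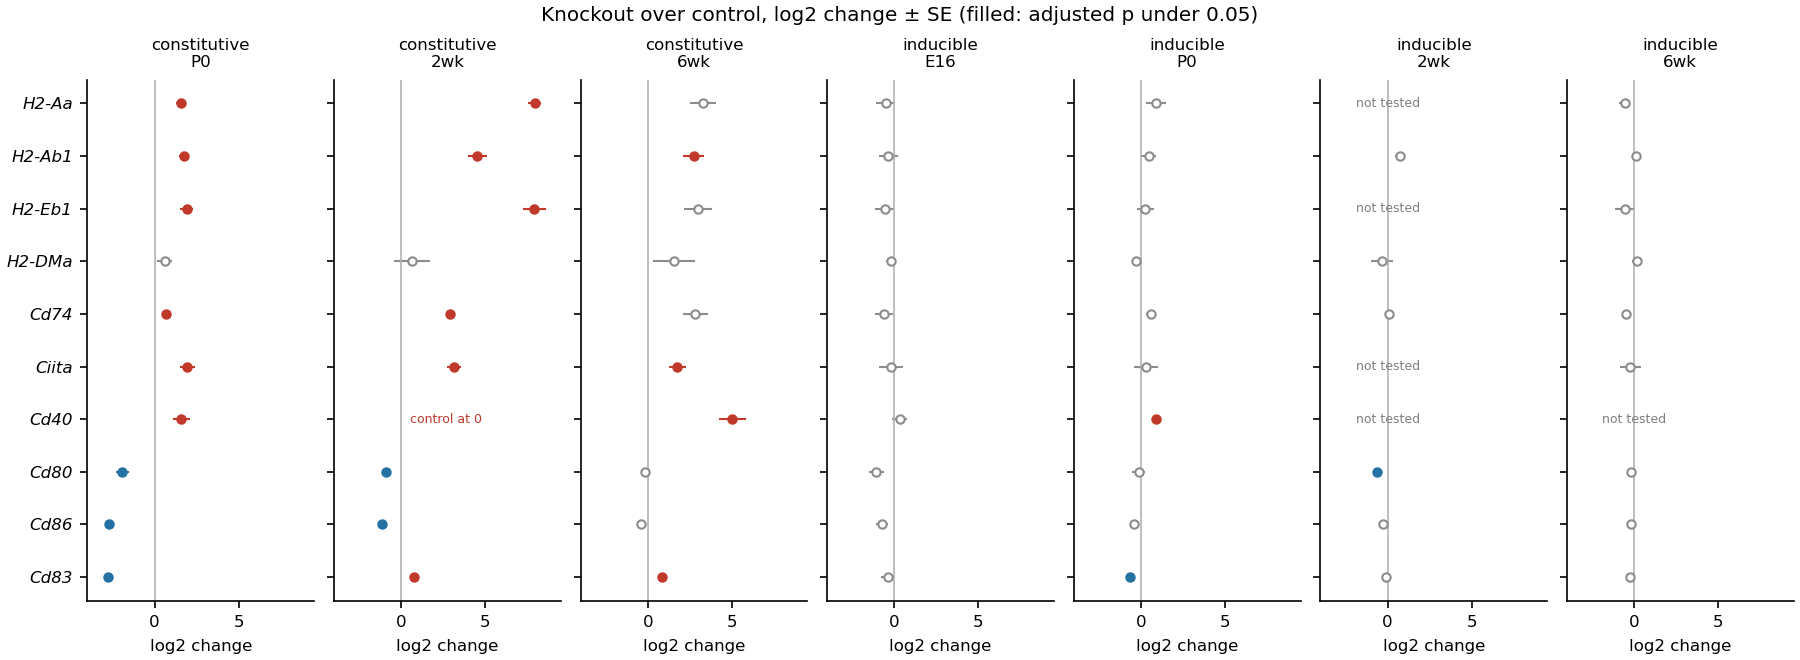
Log2 change of knockout over control with its standard error for the 10 genes (rows) in the 7 knockout comparisons (panels), filled where the adjusted p was under 0.05. Red marks a rise and blue a fall, and Cd40 at constitutive 2 weeks has no point because all 4 controls were at 0.

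Cd74, the invariant chain, moved with the chains from a higher base. It had 213, 305 and 411 CPM in P0 knockouts against 127, 143, 184 and 155 CPM in controls, without overlap (log2 change 0.67 ± 0.21, adjusted p = 0.0242). This call was lost without the knockout library 76 or without the control library 69 or 74, and with all 50 libraries in 1 fit (adjusted p = 0.102). At 2 weeks Cd74 had 601 and 374 against 63.2, 66.1, 71.4 and 57.3 CPM (log2 change 2.89 ± 0.15, adjusted p = 2.48e-06). At 6 weeks it had 378, 1117 and 156 against 94.6, 99.1, 66.3 and 38.1 CPM and was not called (log2 change 2.84 ± 0.74, adjusted p = 0.0679), with library 380 again far above the rest.

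H2-DMa was not called at any age in constitutive knockouts and varied widely between libraries of 1 group. At 2 weeks it had 222 and 187 CPM in knockouts against 165, 157, 185 and 9.75 CPM in controls (log2 change 0.65 ± 1.07, adjusted p = 0.675), where the control library 83 was more than 10 times below the other 3. At 6 weeks the values were 77.6, 249 and 406 CPM in knockouts and 8.38, 11.6, 135 and 170.2 CPM in controls (log2 change 1.54 ± 1.24, adjusted p = 0.566), with 2 controls near 10 and 2 above 100. P0 knockouts had 26.9, 26.9 and 59.5 CPM against 11.0, 12.5, 14.0 and 41.8 CPM in controls (log2 change 0.59 ± 0.46, adjusted p = 0.318). Without the P0 control library 74, the highest of its group, the log2 change was 1.24 (adjusted p = 0.0157).

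Neighbours of H2-DMa on chromosome 17 varied with it. In deviations from the group means over 50 libraries, Pearson r with H2-DMa was 0.942 for H2-DMb1, the gene of a beta chain of H2-DM, 0.870 for Hsf2bp, -0.744 for Msh5 and -0.780 for Sapcd1. Of the 20 genes with the largest size of r, 17 lie on chromosome 17, which holds 4.84% of the 12907 genes ranked. These genes were chosen after their values were seen. Msh5, a meiosis gene, had 3.60 and 39.5 CPM in 2-week constitutive knockouts against 6.25, 9.38, 7.22 and 139.9 CPM in controls. The highest value was that of library 83, the lowest of that group for H2-DMa and for H2-DMb1 (6.99 CPM). At 6 weeks Msh5 had 162, 77.2 and 8.001 CPM in knockouts against 194, 199, 7.51 and 6.67 CPM in controls, and the 2 highest were the controls lowest for H2-DMa.

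**Figure D4:**
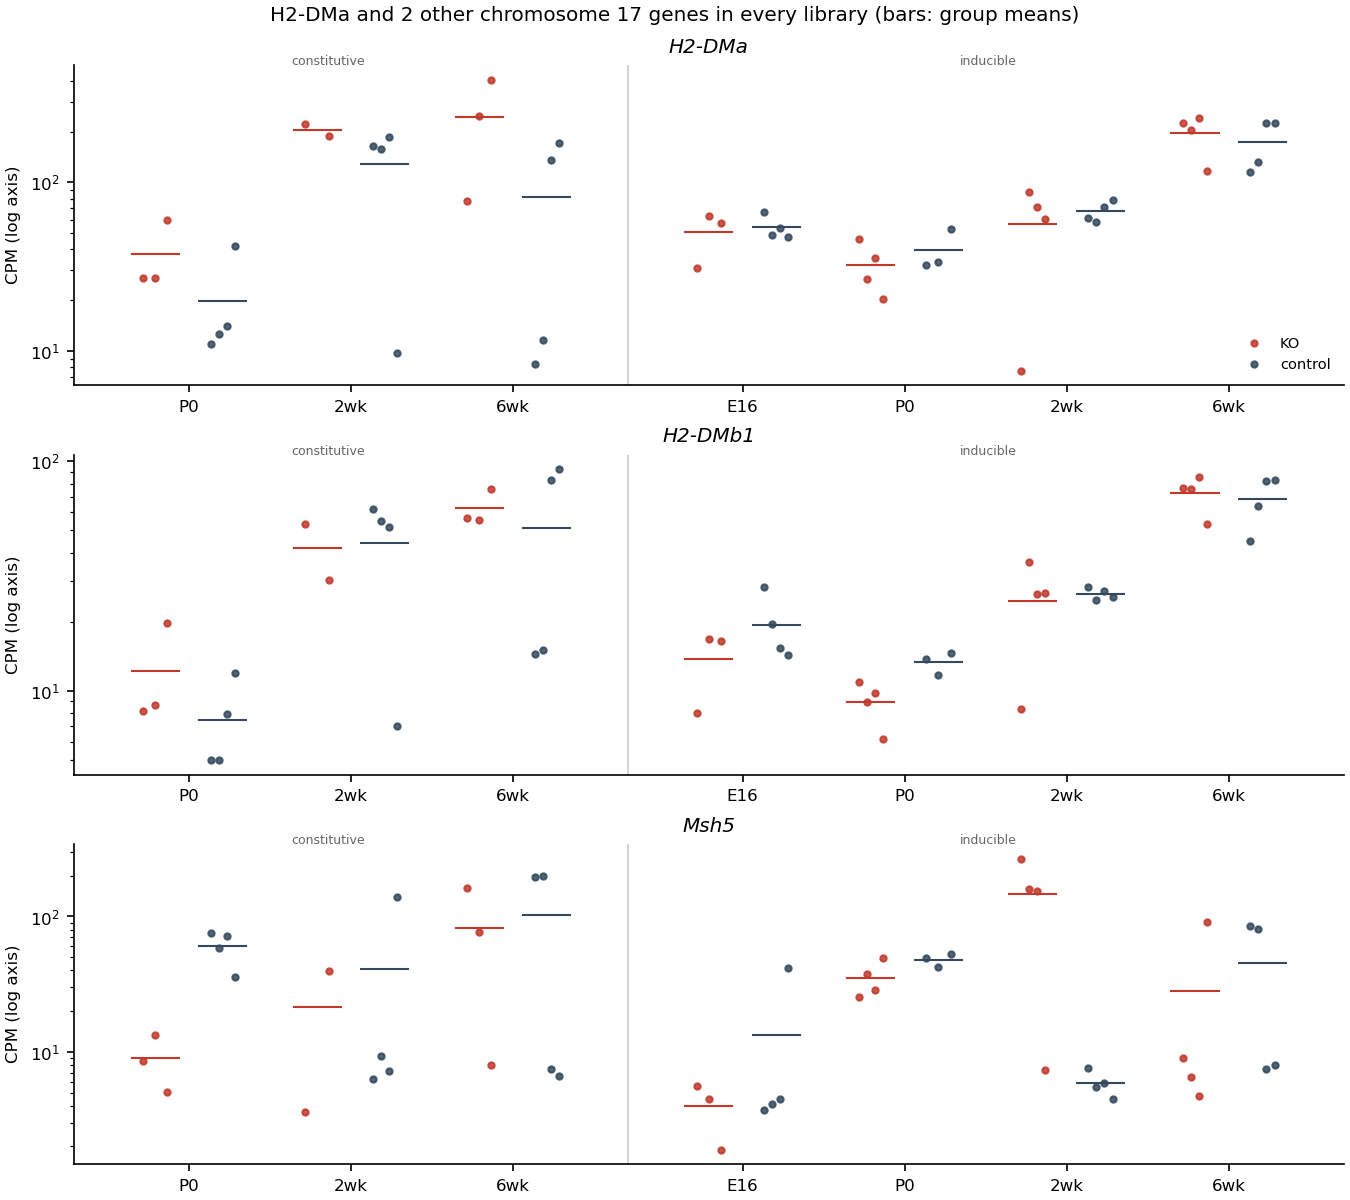
CPM on a log axis for H2-DMa, H2-DMb1 and Msh5 (panels), 1 point per library and bars at group means, knockout left of control and the constitutive groups left of the grey line. The control library 83 at 2 weeks, lowest of its group for H2-DMa (9.75 CPM), is also lowest for H2-DMb1 and highest for Msh5.

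Ciita, the class II transactivator, rose in constitutive knockouts at all 3 ages. It had 6.65, 6.27 and 7.26 CPM in P0 knockouts against 0.555, 2.77, 1.02 and 1.13 in controls (log2 change 1.95 ± 0.45, adjusted p = 0.00551). At 2 weeks the values were 4.002 and 3.80 against 0.407, 0.403, 0.377 and 0.569 CPM (log2 change 3.15 ± 0.41, adjusted p = 0.000286), with 6 to 8 counts in each control. At 6 weeks 4.35, 3.79 and 1.17 against 0.563, 1.41, 0.934 and 0.679 CPM just passed (log2 change 1.74 ± 0.51, adjusted p = 0.0451), with the last knockout inside the control range, and the call was lost on leaving out either knockout with the higher values or any 1 of 3 controls (all but the second given), and with all 50 libraries in 1 fit (adjusted p = 0.11).

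Cd40 was higher in every constitutive knockout library than in any control of its age. At 2 weeks it had 14.4 and 24.9 CPM (251 and 563 counts) in knockouts and 0 counts in all 4 controls, so that it was at least 427-fold higher in knockouts with 3 counts over the control group in place of 0 (counting error only; adjusted p = 6.19e-05). At P0 it had 3.77, 8.11 and 9.03 CPM in knockouts against 2.22, 1.70, 2.75 and 0.483 CPM in controls, without overlap (log2 change 1.57 ± 0.50, adjusted p = 0.0274), a call lost without the knockout library 73 or 76. At 6 weeks it had 6.49, 8.87 and 3.58 against 0.125, 0.611, 0.0778 and 0 CPM (log2 change 5.02 ± 0.79, adjusted p = 0.00221).

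The CD28 ligands ran the other way. Cd86 had 74.7, 42.4 and 95.4 CPM in P0 knockouts against 361, 310.5, 402 and 369.5 CPM in controls, a fall of 6.50-fold (log2 change -2.70 ± 0.26, adjusted p = 3.34e-05). It was still lower at 2 weeks, at 258 and 195 against 505, 463, 549 and 469 CPM (log2 change -1.15 ± 0.13, adjusted p = 0.000148). At 6 weeks 449.8, 378.8 and 482 CPM in knockouts against 575, 469.7, 642 and 521 CPM in controls was not called (log2 change -0.39 ± 0.14, adjusted p = 0.104). Cd80 followed on a lower level, with 4.35, 1.70 and 2.13 against 10.5, 6.68, 8.24 and 7.32 CPM at P0 (log2 change -1.94 ± 0.39, adjusted p = 0.0024) and 12.3 and 11.5 against 21.9, 18.7, 20.0 and 27.6 CPM at 2 weeks (log2 change -0.89 ± 0.21, adjusted p = 0.00705). The 2-week call was lost with all 50 libraries in 1 fit (adjusted p = 0.0597). At 6 weeks its groups overlapped (log2 change -0.18 ± 0.22, adjusted p = 0.707).

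Cd83 changed direction with age. It had 59.5, 39.7 and 41.0 CPM in P0 knockouts against 247, 239, 279.5 and 243 CPM in controls (log2 change -2.79 ± 0.18, adjusted p = 1.6e-05). At 2 weeks it had 361 and 227 against 148, 160.3, 202 and 169 CPM (log2 change 0.77 ± 0.17, adjusted p = 0.00517), and at 6 weeks 461, 553 and 457 against 265, 246, 288 and 266 CPM (log2 change 0.83 ± 0.11, adjusted p = 0.000553). Groups did not overlap at any of the 3 ages, and the microglia marker Tmem119 fell with Cd86 and Cd83 at P0 (log2 change -2.64 ± 0.31, adjusted p = 8.89e-05). Tmem119 fell at 2 weeks too (log2 change -1.63 ± 0.13, adjusted p = 2.04e-05), where Cd86 fell and Cd83 rose.

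In inducible knockouts few of these genes were called. At E16 none of 10 passed edgeR's test, where 0% of all genes rose and 0% fell, with 2306 of 17594 genes at an unadjusted p under 0.05 and 667 called by DESeq2. H2-Aa had 65.8, 122 and 127 CPM in E16 knockouts (libraries 1, 3 and 8) against 261, 134, 124 and 47.1 CPM in controls (log2 change -0.53 ± 0.55, adjusted p = 0.697), so the controls alone spanned the knockout values. The highest control, library 2, also had the highest monocyte marker sum of the 7 libraries, 2407 CPM. Cd80 had 3.08, 10.0 and 9.47 against 13.6, 19.4, 12.6 and 15.5 CPM (log2 change -1.08 ± 0.45, adjusted p = 0.37) and Cd86 144, 336 and 368 against 422, 488, 423 and 488 CPM (log2 change -0.76 ± 0.35, adjusted p = 0.419). All knockouts lay below all controls for both, and among the alternatives run both passed only with all 50 libraries in 1 fit (adjusted p = 0.0213 and 0.0109). Library 1 was the lowest for both, and its microglia marker sum was 6234 CPM, against 16143 and 16457 CPM in the other knockouts and 17038 to 26641 CPM in controls. Leaving out library 1 left 0 of the 10 called, although 638 genes were then called in all.

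At P0 1 gene of the 10 rose, Cd40, and 1 fell, Cd83, against 6.81% and 3.56% of all 17573 genes, shares of the 10 that are close to those of all genes. Cd40 had 16.0, 14.4, 20.3 and 19.3 CPM in knockouts (libraries 48, 49, 53 and 57) against 9.02, 12.1 and 7.54 CPM in controls (log2 change 0.89 ± 0.25, adjusted p = 0.0401). Cd83 had 186, 175, 182 and 226 against 305, 302 and 303 CPM (log2 change -0.64 ± 0.14, adjusted p = 0.0174). Neither overlapped between the groups. The Cd40 call was lost on leaving out any 1 of the 7 libraries and with all 50 libraries in 1 fit (adjusted p = 0.355), the Cd83 call without the knockout library 49 or the control library 55. Both calls were lost with sex as a covariate (2 male and 2 female knockouts, 3 male controls; adjusted p = 0.118 and 0.111). H2-Aa had 44.0, 84.3, 82.1 and 14.7 against 41.6, 30.3 and 18.3 CPM (log2 change 0.89 ± 0.62, adjusted p = 0.409), and library 57 was the lowest of the knockouts for each class II chain and Cd74. Cd74 had 218, 320.3, 372 and 166 against 191, 170.3 and 185 CPM (log2 change 0.57 ± 0.24, adjusted p = 0.158). Without library 57 it was called (log2 change 0.73, edgeR adjusted p = 0.048). Microglia markers summed to 9431 to 13058 CPM in these knockouts against 21428 to 23118 in controls, and 6 of 10 fell.

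At 2 weeks 6 of the 10 passed the filter on low counts and only Cd80 was called, as a fall, against 1.11% of all genes that rose and 1.13% that fell. Cd80 had 21.7, 16.6, 16.1 and 17.4 CPM in knockouts against 20.5, 28.9, 29.9 and 26.3 CPM in controls, with library 10 inside the control range (log2 change -0.62 ± 0.15, adjusted p = 0.0367). The call was lost without the knockout library 13 or 16 or the control library 2, 3 or 4, and with sex as a covariate (3 male and 1 female knockouts, 4 female controls; adjusted p = 0.922). With all 50 libraries in 1 fit its adjusted p was 0.525. H2-Ab1 had 3.73, 11.5, 9.29 and 7.59 against 4.21, 6.03, 4.09 and 4.01 CPM and was not called (log2 change 0.73 ± 0.29, adjusted p = 0.213). H2-Aa (0.372 to 1.57 CPM in knockouts, 0.320 to 0.615 in controls), H2-Eb1 (0.115 to 0.864 and 0 to 0.308), Ciita (0.298 to 1.15 and 0.110 to 0.799) and Cd40 (0 to 0.270 and 0 to 0.110) were too low to be tested. Border macrophage markers summed to 814 to 1026 CPM in these knockouts against 617 to 769.7 CPM in controls, 3 of 11 tested rose, and their part in the H2-Ab1 values was not tested.

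At 6 weeks none of the 9 tested was called, against 0.0492% of all genes that rose and 0.0141% that fell (626 of 14217 genes had an unadjusted p under 0.05, and DESeq2 called none of the 10 and 45 genes in all). H2-Aa had 5.73, 4.93, 8.03 and 7.01 CPM in knockouts (libraries 12, 4, 6 and 9) against 6.18, 6.83, 18.4 and 6.47 CPM in controls (log2 change -0.57 ± 0.34, adjusted p = 0.999), where library 1 of the controls stood above the rest. Cd74 had 40.1, 34.1, 50.2 and 54.8 against 46.9, 48.8, 97.3 and 56.8 CPM (log2 change -0.50 ± 0.22, adjusted p = 0.999). Cd86 had 475, 558, 457 and 525 against 564, 587, 567 and 557 CPM (log2 change -0.20 ± 0.10, adjusted p = 0.999), and Cd40 had 0.169 to 0.765 CPM in knockouts and 0.263 to 0.783 CPM in controls. The knockout library 6 had 8275 CPM of neutrophil markers, 716 of monocyte markers and 8.03 of H2-Aa, against 617 to 1104 CPM of neutrophil markers in the other knockouts. H2-Aa in library 6 was the highest of the 4 knockouts and above 3 of the 4 controls.

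The knockout effects of the 2 models were tested against each other, as the constitutive minus the inducible log2 change. At P0 the constitutive effect was lower for Cd80, Cd86 and Cd83 (log2 differences -1.77 ± 0.58, -2.27 ± 0.34 and -2.11 ± 0.22), and no class II gene was called, with adjusted p = 0.0697 for H2-Eb1 and 0.0899 for H2-Ab1. At 2 weeks 8 of 10 were called, 7 higher in the constitutive model (among them H2-Aa by 7.19 ± 0.75, H2-Ab1 by 3.78 ± 0.65, Cd74 by 2.78 ± 0.26 and Cd83 by 0.85 ± 0.22 on the log2 scale) and Cd86 lower (-0.91 ± 0.16). H2-Eb1 and Cd40 passed the filter on low counts at 2 weeks only through the constitutive knockouts. Those 2 genes could be called only as higher, so part of the share called there follows from the filter. At 6 weeks 5 were called, all higher in the constitutive model: H2-Aa (3.84 ± 0.86), H2-Ab1 (2.63 ± 0.64), Cd74 (3.35 ± 0.76), Cd40 (5.43 ± 1.04) and Cd83 (1.11 ± 0.21). The fitted values of Cd40 depend on the prior count where libraries are at 0. Of all genes 30.9% were called at P0, 31.2% at 2 weeks and 4.95% at 6 weeks, so the 3 of 10 called at P0 were near the share of all genes. The constitutive effect at 2 weeks differed from that at P0 for 7 of the 10, all upward (H2-Aa by 6.35 ± 0.52, Cd86 by 1.49 ± 0.31 and Cd83 by 3.49 ± 0.26), where 30.8% of all genes were called. For the inducible effect this difference was called for none of the 10 in edgeR and 4.38% of all genes (3517 of 17914 had an unadjusted p under 0.05). Some of these calls rest on single libraries: that of Cd80 at P0 was lost on leaving out any of 8 of the 14 libraries, at 2 weeks that of Ciita any of 7, of H2-Eb1 any of 5 and of Cd83 the knockout library 80, and at 6 weeks that of H2-Ab1 any of 9 and of H2-Aa and Cd74 any of 3 (1 constitutive-model control and inducible knockout libraries 4 and 12). With no filter on low counts the differences of H2-Eb1 at 2 weeks and H2-Ab1 at 6 weeks were lost too (edgeR adjusted p = 0.115 and 0.0885).

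Other class II pathway genes did not rise as the chains did. Of 18 such genes (partner chains, H2-DM and H2-O, cathepsins, the RFX, NF-Y and CREB1 factors that bind class II promoters, and the ligase gene March1), 17 were tested. At P0 none rose and 8 fell in constitutive knockouts, among them the class II peptide proteases Ctsl (log2 change -2.69 ± 0.24, adjusted p = 2.61e-05) and Ctss (log2 change -2.84 ± 0.27, adjusted p = 3.19e-05). The median log2 change was -0.55, beside 0.04 over all genes tested. Of all genes 21.4% rose and 20.2% fell at P0, 24.4% and 17.8% at 2 weeks, and 6.76% and 5.24% at 6 weeks. At 2 weeks 2 rose, Ifi30, a thiol reductase of antigen processing (log2 change 1.45 ± 0.15, adjusted p = 8.32e-05), and H2-DMb2, a beta chain of H2-DM (log2 change 1.73 ± 0.28, adjusted p = 0.000954), and 6 fell. At 6 weeks Ifi30 and H2-DMb2 rose again (log2 changes 0.75 ± 0.13 and 1.84 ± 0.36) and Ctsl fell. In inducible knockouts 2 fell at P0, Ctsl and March1, where 3.56% of all genes fell, and none was called at the other ages.

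Class I presentation genes (18) split by age in constitutive knockouts. At P0 none rose and 12 fell, for example Tapbp, the tapasin gene (log2 change -1.22 ± 0.14, adjusted p = 9.47e-05). At 2 weeks 10 rose and 1 fell, with H2-D1 at a log2 change of 1.61 ± 0.15 and the immunoproteasome gene Psmb8 at 0.94 ± 0.16, and a median of 0.73 beside 0.00 over all genes. At 6 weeks only H2-K1 was called, as a rise (log2 change 0.69 ± 0.19, adjusted p = 0.0433). Of 12 interferon gamma pathway genes, 11 tested, 7 fell at P0, among them the receptor gene Ifngr1 (log2 change -2.16 ± 0.21, adjusted p = 3.78e-05), 2 rose and 2 fell at 2 weeks, and none was called at 6 weeks. Among 15 genes of CD40 and NF-kappaB signalling (14 tested), 1 rose and 8 fell at P0, 3 rose and 3 fell at 2 weeks, and 1 rose at 6 weeks, Nfkbia, an inhibitor of NF-kappaB (log2 change 0.70 ± 0.19, adjusted p = 0.0366). Of all genes 21.4% rose and 20.2% fell at P0, 24.4% and 17.8% at 2 weeks, and 6.76% and 5.24% at 6 weeks. The 2-week counts of the interferon gamma and CD40 lists were near these shares. Traf5, an adaptor of CD40, fell in 3 of the 4 comparisons in which Cd40 rose, at P0 (log2 change -2.49 ± 0.26, adjusted p = 4.7e-05) and at 2 weeks (log2 change -0.79 ± 0.14, adjusted p = 0.00158) in constitutive knockouts and at P0 in inducible ones (log2 change -1.11 ± 0.19, adjusted p = 0.00495). Other co-stimulatory and co-inhibitory ligand genes (15) had none that rose and 8 that fell of 11 tested at P0, among them Icosl (log2 change -2.35 ± 0.20, adjusted p = 2.13e-05). At 6 weeks Icosl rose (log2 change 0.99 ± 0.13, adjusted p = 0.0004), as did Cd48, and at 2 weeks 3 rose, such as Cd48 (log2 change 1.56 ± 0.11, adjusted p = 9.93e-06), and 4 fell, such as Vsir (log2 change -1.32 ± 0.13, adjusted p = 5.71e-05). Across the inducible comparisons these 4 lists had no gene that rose, and 1 class I gene, 1 ligand gene and 3 CD40 and NF-kappaB genes fell at P0 and 1 class I and 2 CD40 and NF-kappaB genes at 2 weeks. In these comparisons 6.81% of all genes rose and 3.56% fell at P0, and 1.11% and 1.13% at 2 weeks.

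Across the 50 libraries, log2(CPM + 1) of the 3 chains ran closely together, with Pearson r of 0.988 between H2-Aa and H2-Eb1 and 0.957 between H2-Aa and H2-Ab1. H2-Aa had r of 0.861 with Cd74, 0.808 with Ciita, 0.784 with Cd40 and -0.081 with H2-DMa. Cd80 and Cd86 went together (r = 0.804) and against H2-Aa (r = -0.521 and -0.407). These values describe libraries that share age, model and cell content. Among 12908 genes the 4 most like H2-Ab1 were H2-Eb1, H2-Aa, Clec12a (0.891) and Lyz2 (0.89). Those most like Cd40 were Tgfbi (0.951), Slc7a2 (0.934), Ms4a6c (0.921) and Dram1 (0.918), and those most like Ciita were F10 (0.888), Arhgap26 (0.86), Ccr2 (0.86) and AI839979 (0.852). Cd86 was most like Fcgr3 (0.947), Lmo2 (0.925) and Abca9 (0.921).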

How the data were processed

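Raw counts per gene were deposited by the authors for 50 libraries, and per the submitters' processing notes the tools were CASAVA 1.8.2, STAR 2.5.2b, featureCounts 1.5.1 of Subread and limma 3.28.21 on GRCm38. The sources used here name no annotation release. The deposited CPM equal the counts scaled to each library's total within a relative difference of 1.35e-08, and the log2 values deposited by the authors were not used. TPM was computed here from the counts and the deposited gene length, a column of another kind that the authors gave with the table. Tests used edgeR 4.0.16 in R 4.3.3 (filterByExpr by group, TMM, robust quasi-likelihood fit on the groups compared, Benjamini-Hochberg over all genes tested, threshold 0.05), checked on simulated counts. The simulation gave every gene the same dispersion and held no outlying library. It therefore does not check the calls of genes that vary widely between libraries, such as H2-DMa. DESeq2 1.42.0, RLE scaling, no filter, all 50 libraries in 1 fit, sex (read from sex-linked genes) and leaving out each library were the alternatives. Replicates of 1 group differed in all 67 pairs (chi-square per gene 9.98 to 214). Pearson correlations used log2(CPM + 1). The members and lists were chosen with earlier results of these data known; the genes named are the members, up to 3 called genes of each list per knockout comparison with the smallest p, and the 4 genes most like H2-Ab1, Ciita, Cd40 and Cd86, with at least 5 CPM in 1 group mean or more and no predicted or clone name. A few genes that this rule names are not reported here. Floors from counts cover counting error only.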

Additional observations from a re-analysis of the deposited data

Results flagged for a closer look

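Within groups of 4 libraries, 9 of 89 group and gene pairs had 1 library whose gap to its nearest neighbour, as a share of the range of the group, was over Dixon's critical value of 0.829. Chance flags about 1 group in 20. In inducible-model controls at 6 weeks library 1 stood high for H2-Aa (a gap of 0.947 of the range, 18.4 CPM) and for H2-Eb1 (0.855, 15.6 CPM). In inducible-model controls at 2 weeks library 2 stood high for H2-Ab1 (0.904, 6.03 CPM) and library 3 for Cd86 (0.860, 514 CPM). The inducible 2-week knockout library 16 stood high for H2-Eb1 (0.855, 0.864 CPM). In constitutive-model controls library 83 at 2 weeks stood low for H2-DMa (0.841, 9.75 CPM) and high for Ciita (0.843, 0.569 CPM), and library 74 at P0 stood high for H2-DMa (0.902, 41.8 CPM). The E16 control library 2 stood high for Ciita (0.839, 12.6 CPM).

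The constitutive knockout effect differed from the inducible one by edgeR's test of the difference for Cd80 (-1.77), Cd86 (-2.27) and Cd83 (-2.11) at P0, all on the log2 scale. At 2 weeks the difference was 7.19 for H2-Aa, 3.78 for H2-Ab1, 6.01 for H2-Eb1, 2.78 for Cd74, 2.42 for Ciita, 10.59 for Cd40, -0.91 for Cd86 and 0.85 for Cd83. At 6 weeks it was 3.84 for H2-Aa, 2.63 for H2-Ab1, 3.35 for Cd74, 5.43 for Cd40 and 1.11 for Cd83. Between 2 weeks and P0 the constitutive effect differed by 6.35 for H2-Aa, 2.71 for H2-Ab1, 5.96 for H2-Eb1, 2.16 for Cd74, 10.00 for Cd40, 1.49 for Cd86 and 3.49 for Cd83. Those for Cd40 at 2 weeks depend on the prior count, since its 4 constitutive-model controls were at 0. In the difference between models at 2 weeks, Cd40 and H2-Eb1 passed the filter only through the constitutive knockouts and could be called only as higher. Of all genes 30.9% were called in the difference between models at P0, near the share of these members. The shares were 31.2% at 2 weeks and 4.95% at 6 weeks, and 30.8% for the constitutive effect at 2 weeks against P0.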

How the results depend on the processing

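No paired analysis was possible because knockout and control groups share no library number in the labels. Of 315 log2 changes of members in the knockout comparisons under other settings, 292 kept their direction and their side of the threshold, as did 408 of 460 on leaving out 1 library. With DESeq2, 7 members rose in constitutive 6-week knockouts, and 667 genes were called at E16, 2856, 708 and 45 in inducible knockouts at P0, 2 and 6 weeks, and 3 members and 414 genes between P0 and E16 controls. With all 50 libraries in 1 fit, 1 member fell in constitutive 2-week knockouts, 2 members fell and 1576 genes were called at E16, 0 members rose and 2743 genes were called in inducible knockouts at P0, 0 members fell and 84 genes were called at 2 weeks, and 14 genes at 6 weeks. With no filter on low counts 888 and 25 genes were called in inducible knockouts at 2 and 6 weeks and 56 between P0 and E16 controls. With sex as a covariate 3 genes were called at E16, 0 members rose, 0 fell and 705 genes were called in inducible knockouts at P0, and 0 members fell and 19 genes were called at 2 weeks. Sex also reversed uncalled changes in inducible knockouts: -0.0823 for H2-Aa, -0.36 for H2-Eb1 and -0.83 for Ciita at P0, -0.26 for Cd74 and 0.18 for Cd83 at 2 weeks, and -0.0039 for H2-DMa at 6 weeks. It was not run for the constitutive 6-week comparison, where all libraries were female. The cause of these shifts was not tested.

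On leaving out 1 library at a time (a lone library left in an arm, as among constitutive 2-week knockouts, is assumed to vary like the others), 2 to 7 members rose and 1153 to 1825 genes were called in constitutive 6-week knockouts. In inducible knockouts 0 to 638 genes were called at E16, 680 to 1638 genes at P0 with 0 to 1 members that rose (Cd74, without knockout library 57) and 0 to 1 that fell, 94 to 938 genes at 2 weeks with 0 to 1 members that fell, and 5 to 18 genes at 6 weeks. The difference between models had 2 to 5 members and 3842 to 6067 genes called at P0 and 2 to 5 members at 6 weeks, the inducible effect at 2 weeks minus P0 had 0 to 1 members and 514 to 1048 genes, and 3 to 126 genes were called between P0 and E16 controls. Uncalled log2 changes that took both signs ran at E16 between -0.44 and 0.11 for H2-DMa, -0.67 and 0.18 for H2-Ab1, -0.51 and 0.86 for Ciita and -0.13 and 0.54 for Cd40. In inducible P0 knockouts they ran between -0.44 and 1.05 for Ciita, -0.17 and 0.55 for H2-Eb1 and -0.47 and 0.0702 for Cd80, and at 2 weeks between -0.61 and 0.0484 for H2-DMa, -0.0373 and 0.21 for Cd74 and -0.20 and 0.0073 for Cd83. At 6 weeks they ran between -0.0894 and 0.40 for H2-Ab1, -0.0015 and 0.34 for H2-DMa, -0.87 and 0.48 for H2-Eb1 and -0.83 and 0.0927 for Ciita. Ciita and Cd40 near 0 CPM rest on few counts, and no direction was read from them there.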

Other observations

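Msh5 split libraries of 1 group in other comparisons too. It had 267, 159, 153 and 7.30 CPM in inducible 2-week knockouts (libraries 10, 13, 16 and 6) against 4.45 to 7.62 CPM in controls, and H2-DMa was 7.64 CPM in library 10 and 87.3, 71.2 and 60.4 CPM in the others. At 6 weeks the inducible knockout library 9 had 91.7 CPM of Msh5 and the lowest H2-DMa of its group, 116 CPM, and control libraries 10 and 11 had 85.1 and 81.2 CPM of Msh5 with 116 and 132 CPM of H2-DMa, the lowest of theirs. At P0 Msh5 was 5.02 to 13.2 CPM in constitutive knockouts and 35.9 to 75.6 CPM in controls, without overlap. Within that control group library 74 had the lowest Msh5, 35.9 CPM, and the highest H2-DMa, 41.8 CPM. Of the 20 genes that followed H2-DMa most closely in deviations from the group means, the 17 on chromosome 17 lie between 31.0 and 49.5 megabases. H2-Ab1, H2-Aa and H2-Eb1 lie within that span. H2-Ab1 was lowest of its group in control library 83 (1.38 CPM) and inducible 2-week library 10 (3.73 CPM). Libraries 13 and 16, also high in Msh5, had the highest H2-Ab1 of theirs (11.5 and 9.29 CPM). The part of this variation in the knockout differences of the chains was not tested. Msh5 was chosen after its values were seen, and no group was made from these values.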
